A study of Mus musculus with 2 samples.

Results

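C-type lectin and Siglec receptor genes were described in granulocyte-monocyte progenitors, myeloid precursors of the bone marrow from which neutrophils and monocytes develop. Members were all genes of the GENCODE type protein-coding whose symbol starts with Clec and a digit, with Siglec or with Cd209, or is Cd22 or Cd33. The rule took 45 of 21474 protein-coding genes, 37 of them Clec or Cd209 genes and 8 of them Siglec genes, Cd22 and Cd33 included. Total RNA of primary cells from male C57BL/6J mice aged 5 to 6 weeks was depleted of ribosomal RNA and sequenced from 100 ng per library. The series holds 1 group of 2 biological replicates, both tied by the labels to 1 donor record, and no treatment, genotype or time was varied. The values below are therefore levels in each library and the spread between the libraries. No p-value was possible, and each SD describes these 2 libraries only and may be partly technical. The size range recorded for the library has a higher upper bound in replicate 2 than in replicate 1, with the same lower bound. This difference cannot be separated from replicate. Its part in the levels, ratios and transcript shares that differ between the libraries was not tested.

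C-type lectin receptors are membrane proteins with a carbohydrate-recognition or lectin-like domain, and many of them recognise microbial sugars, dead cells or ligands on other cells. Some activate the kinase Syk, through a motif of their own or through an adaptor such as FcRγ or DAP12, while others carry an inhibitory tail motif that recruits the phosphatases SHP-1 and SHP-2. Siglecs are immunoglobulin-type lectins that bind sialic acid, the sugar that caps many surface glycans, and most of them are inhibitory. Mature myeloid cells are known for carrying many receptors of both families.

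Levels are given in TPM (transcript abundance scaled to a library total of 1000000), which is per transcript length and so can be compared between genes. Replicate 1 held 49473848 expected counts and replicate 2 held 44260902, of which the members took 46574 (0.0941%) and 48552 (0.11%). The TPM share of nuclear protein-coding genes was 19.1% in replicate 1 and 22.8% in replicate 2, so this shift enters the SD of every deposited TPM. Rescaled TPM, where given, sets the nuclear protein-coding genes alone to a total of 1000000. All 6 progenitor markers (Mpo, Elane, Fcgr3, Cd34, Fcgr2b and Kit) were at or above 10 TPM in both libraries, and their summed level was 3550 and 3240 TPM. In such bulk samples, fewer cells of a type and less RNA per cell cannot be told apart.

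Few of the family's genes were expressed, and 1 gene held most of its RNA. At least 1 TPM in both libraries was reached by 12 of 45 members (26.7%), against 40.9% of all protein-coding genes. A count of 0 in both libraries was found for 22 members (48.9%), against 40.2% of all protein-coding genes. Another 2 members reached 1 TPM in 1 library only, and 9 were detected but stayed below 1 TPM in both. On rescaled TPM, 15 of 45 members reached 1 in both libraries, against 47.8% of all protein-coding genes. The median log2(TPM + 1) of the members was 0 in each library, against 0.23 and 0.26 over all protein-coding genes. The summed level of the family was 178 TPM in replicate 1 and 252 TPM in replicate 2. Clec12a alone made up 60.7% and 64.1% of that sum, and Clec12a, Clec5a and Clec2d together made up 82.7% ± 1.37 (SD, n = 2).

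**Figure D1:**
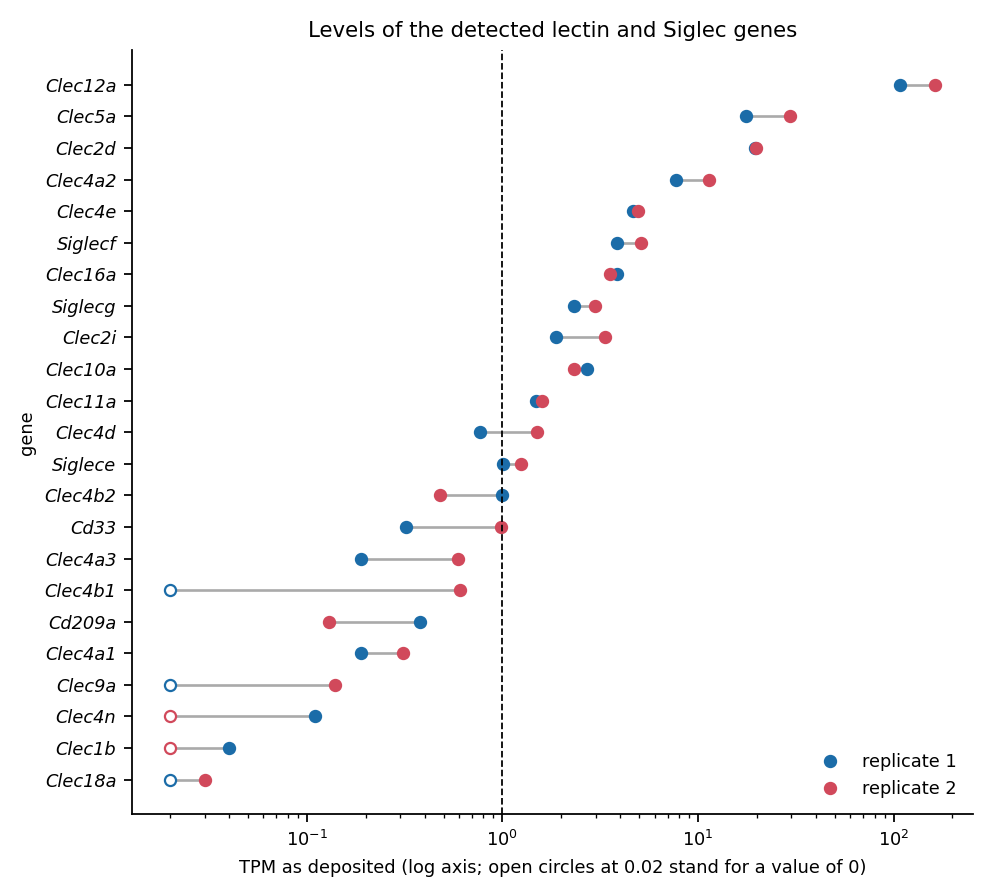
Level of each detected C-type lectin and Siglec gene in TPM on a log axis, with a point for replicate 1 and a point for replicate 2 of the granulocyte-monocyte progenitors. Open circles stand for a value of 0 in that library, and members with 0 counts in both libraries are not drawn. Clec12a stands apart at 108 and 162 TPM, Clec5a and Clec2d follow at 17.7 to 29.7 TPM, and the other members lie below 12 TPM.

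The start regions of a few members are shown because their levels span the family's range, from Clec5a and Clec2d near the top to Clec12b with no counts. The sequences are RefSeq promoter windows of GRCm38.p6, without the bases that GENCODE M21 annotates as exon, written 5′ to 3′ on the strand of the gene. Capitals mark matches on either strand to GAGGAA, the core of the site bound by the myeloid factor PU.1, or to TTGCNNAA, the core of the palindromic C/EBP site. The matches shown do not overlap each other. Clec5a is on the minus strand at chr6:40585822-40586055, Clec4e on the minus strand at chr6:123289872-123290121 and Siglecf on the plus strand at chr7:43351091-43351340. Clec2d is on the plus strand at chr6:129180365-129180614. Clec12b is on the minus strand at chr6:129385504-129385753, a stretch that lies inside the M21 gene but outside its exons.
Clec5a: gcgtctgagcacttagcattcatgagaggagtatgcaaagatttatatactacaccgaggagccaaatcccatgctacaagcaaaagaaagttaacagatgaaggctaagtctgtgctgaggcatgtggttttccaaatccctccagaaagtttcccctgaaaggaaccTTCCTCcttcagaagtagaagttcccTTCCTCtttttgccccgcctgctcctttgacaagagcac
Clec4e: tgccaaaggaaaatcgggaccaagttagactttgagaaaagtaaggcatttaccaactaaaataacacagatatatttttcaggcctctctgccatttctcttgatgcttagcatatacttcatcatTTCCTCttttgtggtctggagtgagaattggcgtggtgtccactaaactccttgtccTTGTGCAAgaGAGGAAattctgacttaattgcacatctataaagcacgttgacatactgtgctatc
Siglecf: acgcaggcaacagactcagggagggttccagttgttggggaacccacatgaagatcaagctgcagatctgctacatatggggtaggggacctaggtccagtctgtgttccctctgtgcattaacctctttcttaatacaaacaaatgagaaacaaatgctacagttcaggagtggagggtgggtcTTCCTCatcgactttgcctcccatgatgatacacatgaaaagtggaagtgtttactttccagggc
Clec2d: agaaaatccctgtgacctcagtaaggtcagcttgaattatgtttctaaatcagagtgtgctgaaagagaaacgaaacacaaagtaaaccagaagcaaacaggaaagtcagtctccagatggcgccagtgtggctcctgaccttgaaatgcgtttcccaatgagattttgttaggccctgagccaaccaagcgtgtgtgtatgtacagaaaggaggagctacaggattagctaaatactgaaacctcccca
Clec12b: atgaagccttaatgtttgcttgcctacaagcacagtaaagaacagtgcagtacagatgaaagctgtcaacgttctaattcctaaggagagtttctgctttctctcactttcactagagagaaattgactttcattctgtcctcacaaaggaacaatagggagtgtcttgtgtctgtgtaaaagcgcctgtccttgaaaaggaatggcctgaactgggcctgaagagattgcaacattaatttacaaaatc

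The Clec5a window held 2 matches to GAGGAA on the reverse strand, starting at -81 and -55 from the RefSeq start. The Clec4e window held GAGGAA at -123 and -56 and TTGTGCAA at -66, and the Siglecf window held a single GAGGAA match at -65. No match to either motif was in the windows of Clec2d, which was expressed, and of Clec12b, which was not detected. The window of Clec12a lies wholly in an annotated exon and is not shown; it held TTGCGCAA at -140 and GAGGAA at -61 and -47.

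RefSeq windows of 300 bases were found for 37 of 45 members, 40 windows in all. GAGGAA was in 20 of them (50%), against 27.2% of the 19931 windows of all protein-coding genes. It was in 8 of 13 windows (61.5%) of members at or above 1 TPM in both libraries and in 5 of 16 windows (31.2%) of members with 0 counts in both. TTGCNNAA was in 6 of 13 windows (46.2%) of the expressed members and in 2 of 16 windows (12.5%) of the undetected ones, against 10% of all windows. The 13 windows came from 11 genes, so windows are not independent. The 6 include both overlapping windows of Clec2i, which hold the same TTCAGCAA site. The remaining 11 windows, from members detected at lower levels, held GAGGAA in 7 (63.6%) and TTGCNNAA in 0. These are counts of letters in fixed windows, and binding was not measured.

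Clec12a, an inhibitory receptor that recognises uric acid crystals of dead cells, was the highest member. Its level was 108 TPM in replicate 1, and in replicate 2 it was 162 TPM (mean 135 ± 38.0, SD, n = 2), from 31040 and 32293 counts, and lies at chr6:129342691-129365303 (mm10). On rescaled TPM the values were 566 and 708. By deposited TPM it ranked 260 and 220 among the 21474 protein-coding genes. Its nearest relative Clec12b, another inhibitory receptor, lies 10.2 kb away and had 0 counts in both libraries.

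The DCIR genes, named after the dendritic cell immunoreceptor, are the rest of this inhibitory group and of its close relatives. Clec4a2, the main mouse DCIR, was at 7.74 and 11.4 TPM (9.55 ± 2.56, SD, n = 2), from 1323 and 1907 counts. It overlaps Gm44132 on the same strand. The other 4 genes of the group with fewer or no reads lay far lower. Clec4b2 was at 1.00 and 0.48 TPM, Clec4a3 at 0.19 and 0.59 TPM, and Clec4a1 at 0.19 and 0.31 TPM, while Clec4a4 had 0 counts in both libraries. In all, 2 of the 7 genes of the DCIR and Clec12 list reached 1 TPM in both libraries, and the list summed to 117 and 174 TPM.

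Among the members, the activating, Syk-coupled receptors were led by Clec5a, also called MDL-1, which signals through DAP12. Clec7a, of the same Syk-coupled list, is left out of the members by its GENCODE type and was at 18.0 and 26.9 TPM. Clec5a was at 17.7 and 29.7 TPM (23.7 ± 8.51, SD, n = 2), from 4124 and 5261 counts. Clec4e, which encodes Mincle, a receptor for mycobacterial glycolipid that pairs with FcRγ, was at 4.64 and 4.95 TPM (4.79 ± 0.219). Its partner gene Clec4d, 6.52 kb away, was at 0.77 and 1.51 TPM from 129 and 190 counts. Clec4d thus crossed 1 TPM in replicate 2 only.

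The remaining activating receptors among the members were each detected in 1 library only. Clec4b1 and Clec9a, the latter a receptor for dead cells on cross-presenting dendritic cells, were detected in replicate 2 only, each with 34 counts (0.61 and 0.14 TPM). Clec4n, which encodes Dectin-2, was detected in replicate 1 only, with 3 counts, all on a processed transcript. Clec1b, the platelet receptor for podoplanin, was likewise detected in replicate 1 only, with 27 counts. All of the Clec1b counts were on the retained-intron transcript Clec1b-204, which overlaps Clec9a on the same strand, so these reads cannot be placed with certainty. In the same libraries, 0 of 6 conventional dendritic cell markers reached 1 TPM in both libraries, and they summed to 1.19 and 2.47 TPM. Of 6 megakaryocyte and platelet markers, only Itga2b reached it, at 2.91 and 3.38 TPM, and the list summed to 3.40 and 4.31 TPM.

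Clec2 genes encode ligands of natural killer cell receptors of the Nkrp1 family. Clec2d, the ligand of the inhibitory receptor Nkrp1d, was at 19.6 and 19.7 TPM (19.6 ± 0.0283, SD, n = 2), from 2931 and 2198 counts. That close match holds for deposited TPM only, and on rescaled TPM Clec2d was at 103 and 86.1. Clec2i was at 1.87 and 3.33 TPM (2.60 ± 1.03), and shares its locus with BC035044 on the other strand. The other 4 Clec2 members, Clec2e, Clec2g, Clec2h and Clec2l, had 0 counts in both libraries. Natural killer cell markers summed to 0.20 and 0.97 TPM, and 0 of 4 reached 1 TPM.

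Among the endocytic lectins and the DC-SIGN genes, only Clec10a, a galactose-type lectin of macrophages and dendritic cells, was expressed. It was at 2.71 and 2.31 TPM (2.51 ± 0.283, SD, n = 2) from 263.7 and 269.6 expected counts. Clec10a was the only member with fractional counts, which means that reads were split with another gene, and its close copy Mgl2 had fractional counts too. Clec10a took 15.3% and 16.3% of the 1724 and 1653 counts that the pair held together, so its level depends on how the authors' estimator split them. Cd209a, the closest mouse counterpart of DC-SIGN, was at 0.38 and 0.13 TPM from 72 and 19 counts. The other 6 Cd209 genes (Cd209b, Cd209c, Cd209d, Cd209e, Cd209f and Cd209g), the Kupffer cell lectin Clec4f and the sinusoidal lectin Clec4g had 0 counts in both libraries. Macrophage markers in these libraries summed to 4.95 and 5.22 TPM, and 2 of 8 reached 1 TPM in both. These were Vcam1 at 2.38 and 2.83 TPM and Adgre1 at 1.92 and 1.95 TPM, while Mertk and Marco had 0 counts in both.

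Of 7 secreted, endothelial and other Clec genes, 2 were expressed. Clec16a, an endosomal protein that acts in autophagy and is no lectin receptor in spite of its symbol, was at 3.86 and 3.56 TPM (3.71 ± 0.212, SD, n = 2). It overlaps Gm15558 on the other strand. Clec11a, a secreted growth factor for haematopoietic and bone progenitors, was at 1.48 and 1.59 TPM (1.54 ± 0.0778). Clec18a had 0 and 6 counts. The endothelial genes Clec1a and Clec14a, and Clec3a and Clec3b, the latter encoding tetranectin, had 0 counts in both libraries.

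Siglec counts were found only for CD33-related genes, a branch of the family whose members are mostly inhibitory. Siglecf, which marks eosinophils and alveolar macrophages, was at 3.86 and 5.13 TPM (4.50 ± 0.898, SD, n = 2), from 1281 and 1292 counts. Siglecg, an inhibitor of B cell receptor signalling that is also found on myeloid cells, was at 2.33 and 2.96 TPM (2.65 ± 0.445). Siglece, a neutrophil and macrophage Siglec, was at 1.01 and 1.25 TPM (1.13 ± 0.170), the lowest value above the threshold. Cd33 was below it in both libraries, at 0.32 and 0.98 TPM from 107 and 249 counts, and reached 1.68 and 4.29 on rescaled TPM. Beside these, 3 of 4 markers of mature neutrophils reached 1 TPM in both libraries, and they summed to 12.2 and 16.5 TPM; their part in the Siglece level was not tested.

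Siglech, a marker of plasmacytoid dendritic cells, Siglec1, the sialoadhesin of resident macrophages, Siglec15, an osteoclast Siglec, and Cd22, the B cell Siglec, had 0 counts in both libraries. The limit set by 3 counts, at the mean effective length of each gene, was at most 0.0503 TPM in replicate 1 and 0.0711 TPM in replicate 2 for any undetected member, and covers counting error only. The deposited credibility intervals are wider for some of these genes, and their upper bounds exceeded the gene's own limit in both libraries for 10 of the 22. For Cd22 the interval ran from 0.0982 to 0.43 TPM and from 0.154 to 0.672 TPM, wholly above its limit, although each of its 15 annotated transcripts had 0 counts in both libraries. Siglech was the other undetected member with both intervals wholly above its limit, with upper bounds of 0.0845 and 0.115 TPM. Intervals of that kind were found for 4.84% of the 8635 protein-coding genes with 0 counts. Beside the 0 counts of Cd22, 4 of 6 B cell markers (Cd79a, Ms4a1, Pax5 and Ebf1) had 0 counts, while Cd79b was at 4.69 and 7.43 TPM. Beside the Siglecf values, 5 eosinophil markers summed to 22.1 and 22.7 TPM, and 2 of them reached 1 TPM in both libraries. Most of that sum was the granule protein gene Prg2, at 19.1 and 17.3 TPM. Prg3 was at 2.07 and 3.77 TPM and the peroxidase gene Epx at 0.86 and 1.11 TPM. The receptor genes were lower, with Ccr3 at 0.07 and 0.17 TPM and Il5ra at 0 and 0.34 TPM. The part of eosinophil-lineage cells in the Siglecf level was not tested. Beside Siglech, the plasmacytoid markers Tcf4 and Bst2 were at 3.61 to 14.4 TPM and Ly6d had 0 counts.

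The Siglec members had a slightly higher median than the Clec members, but that median rests on 1 low gene. With 4 of 8 Siglec members at 0 counts, it lies midway between 0 and the log value of Cd33. The median log2(TPM + 1) of the 8 Siglec members was 0.20 in replicate 1 and 0.49 in replicate 2, and that of the 37 Clec and Cd209 members was 0 in each. The difference was 0.35 ± 0.21 (SD, n = 2) on that scale, 0.96 on rescaled TPM and 0.13 over the members at or above 0.1 TPM in either library. At least 1 TPM in both libraries was reached by 3 of 8 Siglec members (37.5%) and by 9 of 37 Clec and Cd209 members (24.3%). The share over all protein-coding genes was 40.9%.

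Many members lie in clusters of related genes, and expressed and undetected genes were neighbours there. Chromosome 6 held 22 of the 45 members, 6 of them at or above 1 TPM in both libraries and 8 with 0 counts. The Clec4 cluster at chr6:122921848-123289870 (368 kb) held 9 members, of which Clec4a2 and Clec4e reached 1 TPM in both libraries. A second cluster at chr6:128662385-129452000 (790 kb) held 10 members, of which Clec2d, Clec12a and Clec2i reached it and 5 had 0 counts. The 4 Siglec genes at chr7:43351341-43660161 (309 kb) were all detected, and 3 of them reached 1 TPM in both libraries. The cluster at chr8:3707064-4137707 (431 kb), with Clec4g and the 7 Cd209 genes, held 0 members at 1 TPM and 7 with 0 counts.

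**Figure D2:**
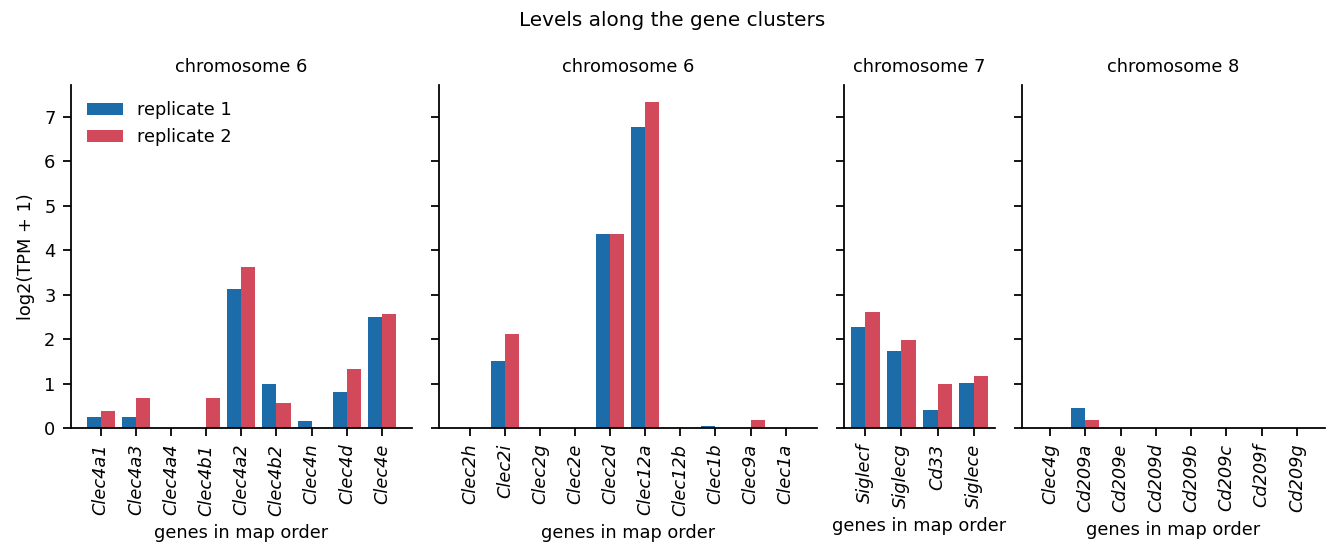
Levels as log2(TPM + 1) along the 4 clusters with several members, in map order, with a bar for each replicate. Tall bars such as Clec12a stand beside genes with 0 counts such as Clec12b, and Cd209a is the only gene of the chromosome 8 cluster with a bar.

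The transcript tables add which form of each gene was counted. Clec12a was mostly Clec12a-201, at 95.1% of the gene's TPM in replicate 1 and 83.3% in replicate 2, and Clec12a-204 held 4.15% and 14.4%. Siglecf-201 held 85.6% and 88.8%, and Clec4e-201 held 65.8% and 80.3%. For Siglecg, Siglecg-201 held 70.0% and 72.3%, and retained-intron transcripts held 30.0% and 27.7%. For Cd33, the transcript of 2488 nt held 87.6% and 100%. Clec2d, Clec11a and Siglece have a single annotated transcript each.

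Other members led with a form that is not annotated as protein-coding, or with a form that changed between the libraries. Clec5a-201, typed as a processed transcript, held 53.6% and 65.8% of Clec5a, and its protein-coding transcripts held 46.5% and 34.2%. Clec16a-206, typed as a target of nonsense-mediated decay, held 58.4% and 50.5% of Clec16a, and protein-coding transcripts held 19.9% and 41.6%. For Clec4a2, the protein-coding transcript of 918 nt led in replicate 1 at 47.7% and that of 2481 nt in replicate 2 at 49.2%. Clec2i-204 held 68.8% in replicate 1 and 0% in replicate 2, where Clec2i-201 held 79.4%. For Clec10a, the retained-intron transcript Clec10a-203 led in replicate 1 at 53.0% and Clec10a-202 in replicate 2 at 78.7%. For Clec4a2, Clec2i and Clec10a the leading transcript thus differed between the libraries.

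**Figure D3:**
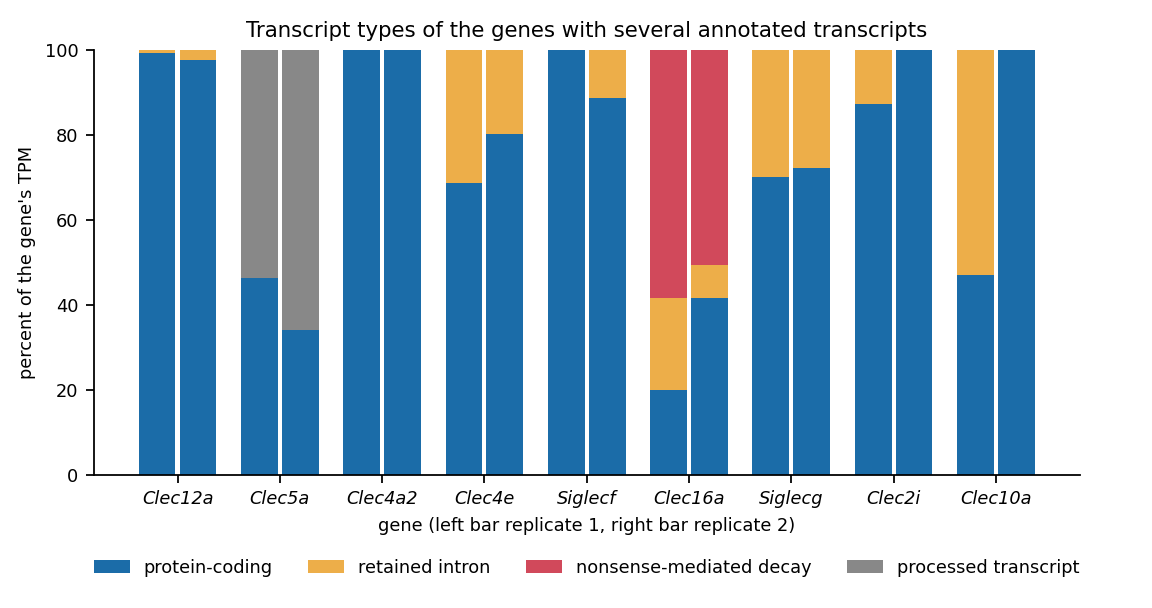
Percent of each gene's TPM held by each type of annotated transcript, with the left bar for replicate 1 and the right bar for replicate 2. Drawn are the members at or above 1 TPM in both libraries that have several annotated transcripts. The processed-transcript part of Clec5a (53.6% and 65.8%) and the nonsense-mediated decay part of Clec16a exceed their protein-coding parts in both libraries.

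The libraries were compared as the log2 ratio of CPM (counts scaled to the library total), replicate 2 over replicate 1, scaled over all genes. Of 8 members with a mean of at least 10 CPM, 0 had a ratio beyond 1 in either direction, against 39 of 8203 protein-coding genes (0.475%). The median size of the ratio was 0.15 for these members and 0.18 for all genes. Clec4a2 had the largest ratio at 0.64, and 4.5% of the 8203 genes lay at least as far from 0. Clec5a followed at 0.47 (11.3% of genes as far) and Clec2d at -0.30 (28.4%). Clec12a was at 0.17, with 51.7% of genes as far.

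Deposited TPM gives a different picture from CPM. The deposited credibility intervals of the TPM did not overlap between the libraries for 6 of the 12 expressed members (50%), against 70.5% of the 8775 protein-coding genes at or above 1 TPM in both libraries. All 6 of these members were higher in replicate 2. Of the 6183 protein-coding genes without overlap, 5366 were higher in replicate 2, which is 61.2% of the 8775. For Clec12a the intervals ran from 105 to 108 and from 157 to 163 TPM, while its CPM ratio was small. The share of TPM on nuclear protein-coding genes moved in the same direction, from 19.1% to 22.8%.

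The ratio also moved with base composition. Over all genes of at least 10 CPM, the median ratio fell through the 5 GC quintiles of the leading transcript, from 0.16 and 0.08 through 0 to -0.09 and -0.17. Clec12a, Clec5a, Clec4a2 and Clec4e were all in the lowest GC quintile, at 39.7% to 42.9% GC. Of these, Clec4e had a ratio of -0.03, below the quintile's median, and Clec2d, in the next quintile at 44.9% GC, had a ratio of -0.30. The part of GC content in the members' ratios was not tested.

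Ratios beyond 1 were found among members with few counts. With a minimum of 1 CPM, Cd33 (1.32), Clec4a3 (1.13) and Clec4b2 (-1.32) were beyond 1, which is 3 of 16 members (18.8%) against 5.6% of 10708 genes. These sets differ in level, since 8 of the 16 members but 8203 of the 10708 genes had at least 10 CPM. The shares are therefore not like for like. Below 1 CPM, Cd209a, Clec1b, Clec4n, Clec4b1, Clec9a and Clec18a were beyond 1 too. Each of these 6 rested on 72 counts or fewer in either library.

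**Figure D4:**
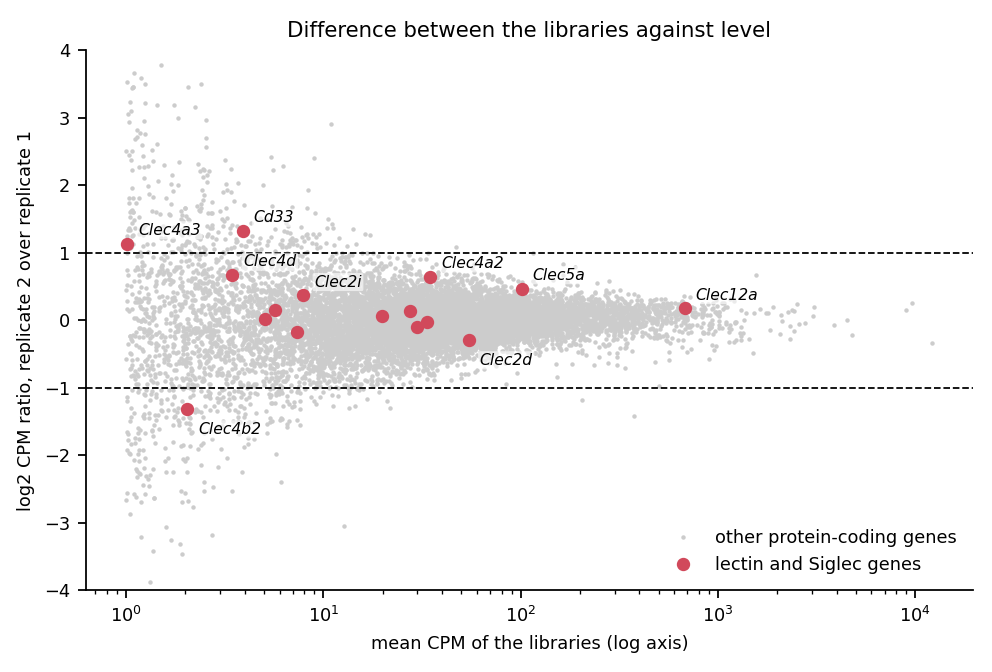
Log2 CPM ratio of replicate 2 over replicate 1 against mean CPM (log axis) for 10708 protein-coding genes of at least 1 CPM, with 16 lectin and Siglec genes in red and 20 other genes beyond the axis limit of 4. Dashed lines mark ratios of 1 and -1; Cd33, Clec4a3 and Clec4b2 lie outside them, at low CPM, and Clec12a lies near 0 at high CPM.

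Most genes of a chosen list of signalling partners of the receptors were expressed. The members were taken by symbol, so the shares of the partners and the members are not like for like. Of 18 partner genes, 17 (94.4%) were at or above 1 TPM in both libraries, against 40.9% of all protein-coding genes. The partner median was 14.1 and 15.3 TPM. The 4 highest were Ptpn6, which encodes SHP-1, at 72.4 and 76.4 TPM, the exchange factor gene Vav1 at 55.8 and 70.7 TPM, Tyrobp at 52.4 and 67.7 TPM and Fcer1g at 28.1 and 40.2 TPM. Tyrobp encodes DAP12, the adaptor of Clec5a, and Fcer1g encodes FcRγ, the adaptor of Clec4e. The kinase gene Syk was at 13.9 and 15.1 TPM, and Card9, the adaptor downstream of Syk, at 23.7 and 28.7 TPM. The Src-family kinase gene Fgr was the only partner below the threshold, at 0.47 and 0.24 TPM.

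**Figure D5:**
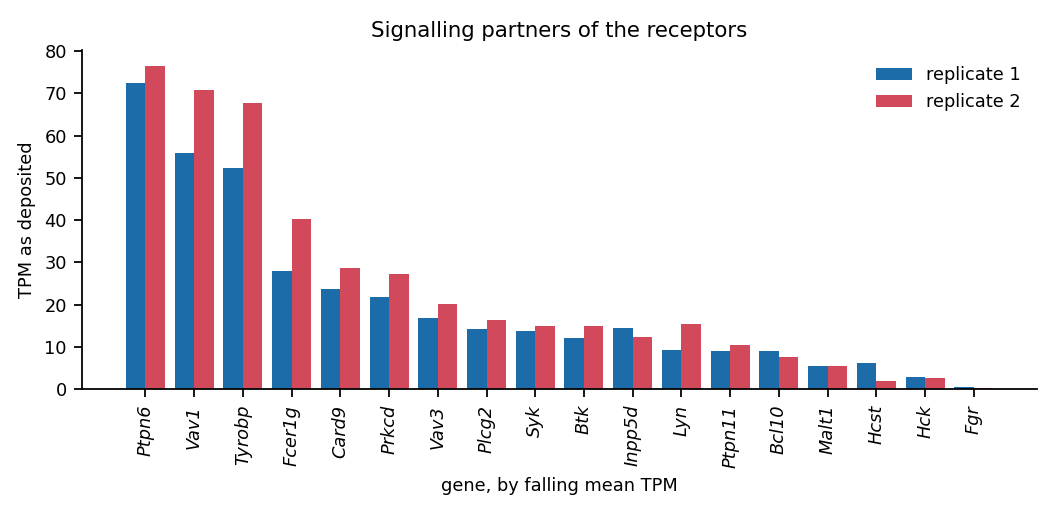
Levels of the signalling partner genes in TPM on a linear axis, with a bar for each replicate. Ptpn6, Vav1, Tyrobp and Fcer1g are the highest at 28.1 to 76.4 TPM, and Fgr is the lowest, below 1 TPM in both libraries.

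A chosen list covered genes that make, transfer or remove sialic acid, the ligand of the Siglecs. Of 19 such genes, 11 (57.9%) were at or above 1 TPM in both libraries, against 40.9% of all protein-coding genes. Another 6 were below 1 TPM in both. St8sia4, a polysialyltransferase, was highest at 24.4 and 32.3 TPM. Nans, the sialic acid synthase, was at 17.0 and 22.8 TPM, Cmas, which activates the sugar, at 16.8 and 15.6 TPM, and the sialyltransferase St3gal4 at 7.63 and 8.52 TPM. Below 1 TPM were St3gal1 (0.94 and 0.99), St3gal6, St6gal1, Neu3, Cmah and Nanp. St6gal1, which makes the linkage that Cd22 prefers, was at 0.34 and 0.03 TPM, and Nanp had 0 counts in both libraries.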

How the data were processed

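Total RNA of 1 group was measured in 2 libraries. Gene and transcript levels were deposited in expected counts, with shared reads split by the authors' estimator, and in TPM and FPKM scaled over all features in the file. Interval bounds were deposited as a signal on the TPM scale, and transcript shares as a percent of the gene. The assembly is mm10 (per the labels), with GENCODE M4 per the deposited metadata; aligner, quantifier and strand use in counting: not given in the sources used here, so reads of overlapping genes may be shared. Names, types and coordinates came from GENCODE M21 on the same assembly for 42462 of 43346 annotated genes, and promoters from RefSeq GRCm38.p6.

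Members and lists were chosen with earlier results of these data known. Named genes are all members at or above 1 TPM in both libraries, those next to that threshold, those with 0 counts, those with a ratio beyond 1, and, of each pathway list, the 4 highest and those below 1 TPM. Log levels used a pseudocount of 1. Expected counts were rounded for edgeR 4.0.16 in R 4.3.3, and ratios are TMM-scaled log2 CPM (prior count 2); the script was tested on simulated data. DESeq2 1.42.0 size factors, other thresholds, pseudocounts and filters, FPKM, posterior means, rescaled TPM and each library alone were alternatives. A count of 0 allows 3 counts, 0.0606 and 0.0678 CPM, counting error only. With 1 group of 2 libraries nothing was tested. Some list genes are not reported here by name.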

Additional observations from a re-analysis of the deposited data

How the results depend on the processing

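The 12 members at or above 1 TPM in both libraries became 4 at 5 TPM and lay between 12 and 18 under the other thresholds and scales tried (0.1 and 0.5 TPM, rescaled TPM, FPKM, posterior mean TPM and at least 10 counts). The share over all protein-coding genes was 23.5% at 5 TPM (4 of 45 members), 44.7% at 0.5 TPM (13 of 45) and 45.9% on FPKM (14 of 45). At 0.1 TPM, 10746 of 21474 protein-coding genes and 18 of 45 members reached the threshold. The members had the lower share at each of these settings. Either library alone gave 13 members and 17 signalling partners, and partners numbered 15 to 18 under all alternatives. The median log2(TPM + 1) of the members was 0 in either library alone, -3.32 with a pseudocount of 0.1, 0.09 on posterior mean TPM and 1.34 over the members at or above 0.1 TPM in either library. The difference of Siglec and Clec medians, 0.35, ranged from 0.20 to 0.49 over the single libraries. It was 1.38 with a pseudocount of 0.1, 0.96 on rescaled TPM and 0.13 over members at or above 0.1 TPM; with 4 of 8 Siglec members at 0 counts, the Siglec median lies midway between 0 and the log value of Cd33. Members with a ratio beyond 1 numbered 0 under every scaling tried, 3 with a minimum of 1 CPM and 9 with no minimum. For ratios beyond 1, the share over all protein-coding genes was 5.6% at 1 CPM, a set with a larger part of high-count genes. It was not computed without a minimum. The share of the 3 highest members ranged from 81.7 to 83.7% over the single libraries. Members below about 1 CPM rest on few counts, and their order is not fixed at this depth. No paired analysis was possible because the series holds 1 group.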

Other observations

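Lectin genes outside the symbol rule were in part as high as its upper members. GENCODE M21 types Clec7a, which encodes the β-glucan receptor Dectin-1, as a polymorphic pseudogene, so the rule left it out. Clec7a was at 18.0 and 26.9 TPM (22.4 ± 6.27, SD, n = 2), from 4023 and 4600 counts, between the levels of Clec2d and Clec5a, and lies at chr6:129461591-129472779 (mm10). Clec2f, a transcribed pseudogene of the Clec2 cluster, was at 2.36 and 3.85 TPM, and the pseudogene Clec2j had 0 counts in both libraries.

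Of 22 other genes of lectin or lectin-like receptors, 8 (36.4%) were at or above 1 TPM in both libraries, against 40.9% of all protein-coding genes. Among them, the complement-related receptor gene Cd93 was at 28.5 and 34.2 TPM, the early activation gene Cd69 at 24.6 and 37.8 TPM, and Mgl2, the close copy of Clec10a, at 7.17 and 8.93 TPM.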
